A study of Mus musculus with 25 samples.

Results

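Sperm of male mice fed a Western diet (WD) were compared with sperm of males fed the control diet (CD), using the 5 WD and 5 CD libraries named as such in the sample titles, which are 10 of the 25 libraries of the series. Each library holds total RNA of caudal epididymal sperm from 1 C57BL/6J male. The sperm had been released from sliced tissue and collected by swim-up for 30 min, and the males had started their diet at 8 weeks of age and stayed on it for at least 8 weeks. CD held 18% casein and 21% sugar with 0% milk fat and 0% cholesterol, and WD held 19% casein, 34% sugar, 20% milk fat and 0.15% cholesterol. Neither group received the methyl donor supplement. The study also lists more corn oil and methionine in CD, and more of the mineral and vitamin mixes in WD. The other 15 libraries, from males on a low-protein diet (LPD) and on methyl donor supplemented LPD and WD (MD-LPD, MD-WD), entered the filter on low values, the estimate of the spread and the term for total reads. The treatment field of the library titled CD male 15 names the low-protein diet, and its title was followed here. The field also names MD-LPD for LPD male 15 and WD for MD-LPD male 15, where the titles were followed too. Groups taken from the field therefore change WD as well as CD.

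A mature sperm has a compacted nucleus that hardly transcribes and cytoplasmic ribosomes that hardly translate, so its RNA is largely what spermatogenesis left behind together with what it takes up in the epididymis. Precursor RNA with its introns is spliced in the nucleus by the spliceosome, where U1 and other small nuclear RNAs mark the splice sites and SR proteins and hnRNPs help to choose them. A swim-up preparation can still hold somatic cells of the duct and blood. In such bulk RNA, fewer cells of a type and less RNA in each cell cannot be told apart, which applies to every comparison made here.

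Protamine transcripts, which mark haploid germ cells, were read in all 10 libraries (Prm2, 9474 to 103966 normalised counts), and the libraries differed in depth and composition before any gene was compared. CD libraries held 32455480 to 38676778 reads assigned to genes and WD libraries 38382505 to 50866207. Males 10, 11 and 13 of WD were deep libraries, taken here as those of over 45000000 reads, a depth that no CD library had and that 9 of the 25 libraries reached (2 LPD, 2 MD-LPD, 3 WD and 2 MD-WD). Across all diets, those 9 libraries held 10.4% to 22.9% of their reads in 7SL RNA, the scaffold of the signal recognition particle, and 0.103% to 0.221% in TEC models, GENCODE's label for transcribed loci still awaiting experimental proof. The 16 shallower libraries held 3.08% to 11.7% and 0.368% to 0.870%. The difference between the diets is therefore given 3 ways where it matters, over all libraries, without those 9 deep libraries and with log2 of the total reads as a term in the model, and diet and depth cannot be told apart in WD males 10, 11 and 13. Male 10 of CD also stood apart, with 26859 genes read against 33069 to 35573 in the other CD males, and on the leading pair of principal components (37.7% and 29.5% of the variance) male 14 of WD lay among CD males 11, 12, 14 and 15.

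**Figure D1:**
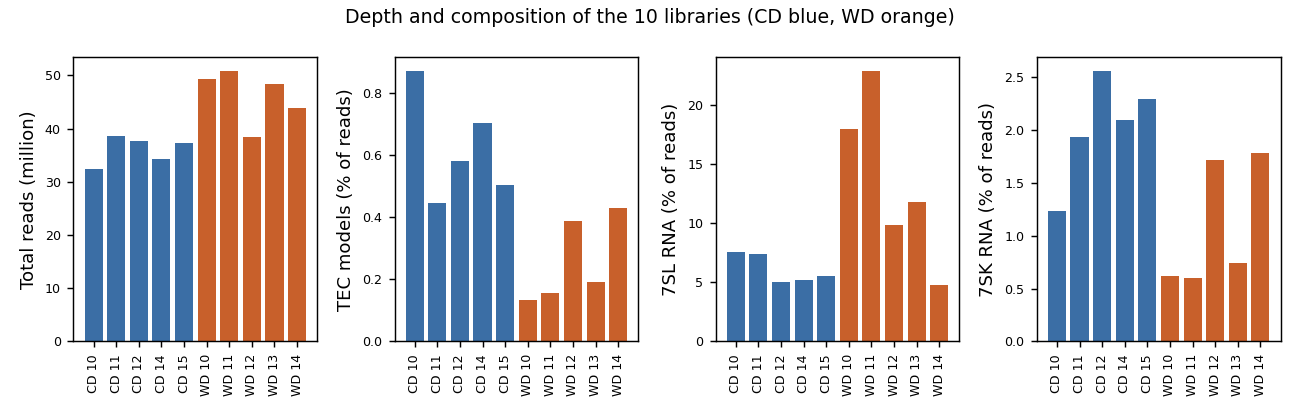
Reads assigned to genes and the percent of those reads in TEC models, 7SL RNA and 7SK RNA, 1 bar for each CD (blue) and WD (orange) male. All 5 WD bars for TEC models are below the lowest CD bar, and WD males 10, 11 and 13 have the highest totals and the highest 7SL shares.

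No gene passed limma at an adjusted p under 0.05, in either direction, among the 28311 genes tested (0% called), and the lowest adjusted p was 0.220. The limma alternatives that gave calls were the fit with estimated library weights, with 5999 genes higher and 6201 lower, and the fit without CD male 12, with 1 higher (Dhx58os). edgeR's quasi-likelihood test on the recovered counts called 0 genes as well. At an unadjusted limma p under 0.05, 2314 genes were higher in WD (8.17% of those tested) and 2293 lower (8.10%), and edgeR gave 3911 (13.8%) and 1474 (5.21%). All 5 WD values lay above all 5 CD values for 366 genes (1.29%) and below them for 726 (2.56%), and these shares are the background for the counts that follow. DESeq2 at its default settings called 59 genes higher (0.25%) and 64 lower (0.272%), and with its filter set to 0.05, 61 (0.232%) and 47 (0.178%). Its calls numbered 5 when WD male 11 was left out (Bsg, Gm43064 and Pcdhga10 higher, Snord3b3 and Slc25a43 lower), 668 when WD male 12 was and 2136 when WD male 14 was. Bsg and Gm43064 were the 2 genes that it called with all libraries and with any 1 CD or WD library left out, although Gm43064 shares 94.3% of its exonic bases with other annotation on the same strand and its counts are uncertain. With total reads as a term, 350 of the 28311 genes were higher and 166 lower at an unadjusted limma p under 0.05. Without the deep libraries 330 and 627 of the same 28311 were. In both fits the directions together stay below the share of 0.05 that such a p passes when no gene differs. Without the deep libraries only WD males 12 and 14 remain beside the 5 CD males, and total reads largely follow diet. Neither low count can therefore show that no gene differs.

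Over all libraries, transcripts of splicing factors had the lowest median of the 24 pathway lists examined. Inflammatory response genes were lower than they without the deep libraries (-0.50 against -0.28). Mitochondrially encoded transcripts were lower with total reads as a term (-0.80 against -0.17). Of 60 SR proteins, hnRNPs and U2-associated factors, which choose and join exons, 55 were lower in WD than in CD on average, against 48.4% of all genes tested. For 25 of them (41.7%, against 2.56% of all genes) every WD value was below every CD value, and 37 had an unadjusted limma p under 0.05 in that direction. The list's median log2 difference was -0.49, beside 0.03 over all genes. Summed over the list, the normalised read counts were 398249, 314014, 317465, 345296 and 298497 in CD males 10, 11, 12, 14 and 15 and 220974, 200321, 282560, 238853 and 275144 in WD males 10 to 14, so that the highest WD sum was below the lowest CD sum.

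Hnrnph1, an hnRNP that binds G-rich sequence beside splice sites, was read 11219.6, 8447, 7485, 8120.1 and 6521 times in the CD libraries after normalisation and 3080.2, 2782, 5709, 3577 and 4599 times in the WD libraries. The groups did not overlap, with the 3 deep WD libraries lowest and males 12 and 14 between them and the CD males. The log2 difference was -1.11 ± 0.26 (SE), with an unadjusted limma p of 0.000277. Hnrnpa2b1, an hnRNP of mRNA sorting and splicing, had CD values of 11404, 11458, 10441, 12313 and 9699.7 and WD values of 5027, 4166, 8879, 5581 and 7517 (log2 difference -0.88 ± 0.23). Ptbp2, the neural and germ cell relative of the polypyrimidine tract binding protein, had 3754, 2429, 2133, 2561 and 2052 in CD and 959, 1133, 2042, 1512 and 1578 in WD, where the highest WD male was just below the lowest CD male. Srsf7, an SR protein, had 3305, 3382, 3233, 3521 and 2935 in CD and 1824, 1437, 2700.1, 2100.5 and 2157 in WD (log2 difference -0.71 ± 0.20). In each of these 4 genes, WD males 12 and 14 were the WD libraries nearest to CD.

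Among the other members without overlap were Clk1, a kinase that phosphorylates SR proteins (log2 difference -0.94), Srsf3 (-0.85), Tra2a (-0.74), the RNA-binding protein Tardbp (-0.68), Rbm5 (-0.80), the helicase Ddx5 (-0.52) and U2surp, a partner of the U2 snRNP (-0.55). The exception was Srsf4, which had 618 ± 52.2 in CD and 843 ± 171 in WD (mean ± SD, n = 5 each), with every WD value above every CD value. Without the 9 deep libraries, 52 of the 60 members were still below CD on average and 5 had an unadjusted limma p under 0.05, with a median of -0.28. With total reads as a term, 50 were below CD, 1 had such a p and the median was -0.17. The direction of the median thus held while its size shrank. Leaving out any 1 CD or WD library gave medians between -0.54 and -0.42.

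**Figure D2:**
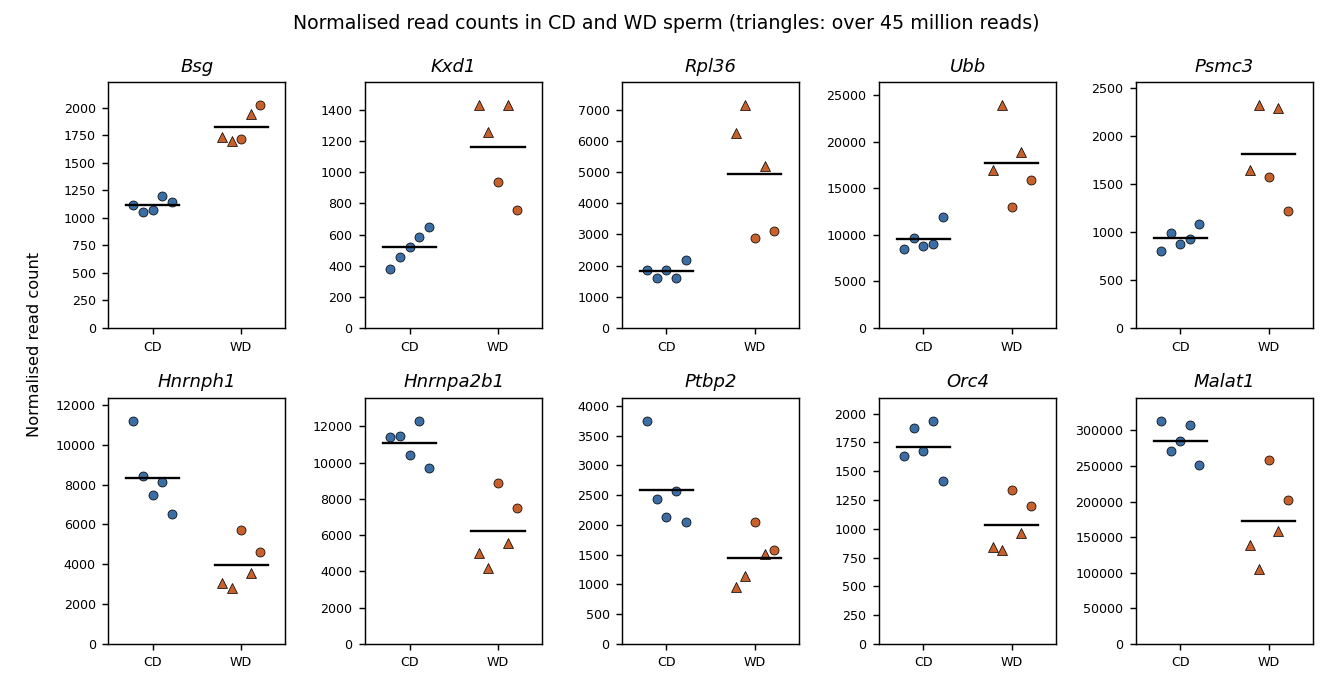
Normalised read counts of 10 named genes in each CD (blue) and WD (orange) library, with a bar at the group mean and triangles for deep libraries. The WD and CD points do not overlap for any gene drawn except Malat1, where the highest WD value (258895) passes the lowest CD value (252058).

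While transcripts of those protein factors were lower, the small RNA that pairs with the 5′ splice site was read more often in WD on average. U1 snRNA is transcribed from several near-identical genes, and Rnu1b6 was the 1 member of the list of 27 small noncoding RNAs without overlap between the groups. Of the U1 genes outside that list, Gm24830, Gm25890 and Gm24136 were without overlap as well. Its transcript in the GENCODE annotation (build GRCm39, chromosome 3, 96367340 to 96367505, minus strand) is shown because its first bases carry the pairing segment, set in capitals.
Rnu1b6: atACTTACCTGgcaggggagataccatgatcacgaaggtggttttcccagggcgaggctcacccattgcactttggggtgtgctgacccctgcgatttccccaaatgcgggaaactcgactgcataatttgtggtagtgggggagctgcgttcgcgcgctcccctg
Rnu1b6 was read 26.7, 15.9, 32.4, 26.5 and 28.1 times in CD and 86.9, 90.1, 97.4, 128 and 41.6 times in WD after normalisation, with a log2 difference of 1.69 ± 0.45 and an unadjusted limma p of 0.00111. Gm24830, whose 166 bases are identical to those of Rnu1b6, had 31.4, 21.2, 40.9, 31.0 and 36.1 in CD and 122, 115, 123, 161 and 49.7 in WD, so their reads cannot be told apart. Rnu1a1 on chromosome 11, which has the same pairing segment and is of nearly the same length, was read far more often, at 677, 1080, 925, 969.6 and 1100.1 in CD and 4316, 3917, 2557, 3958 and 976 in WD. The groups overlapped in Rnu1a1, Rnu1b1 and Rnu1b2, since WD male 14 was within the CD range of each. The 27 listed small noncoding RNAs tested had a median log2 difference of 0.75, 0.59 without the deep libraries and 0.20 with total reads as a term. The whole classes were not higher. Over all tested genes of a class, the medians were -0.05 for 199 small nuclear RNAs and -0.36 for 185 small nucleolar RNAs. They were -0.46 for 130 microRNAs and -0.49 for 71 genes labelled misc_RNA. Many of these RNAs are multi-copy and shorter than a read pair, so their counts are uncertain.

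TEC models, most of them unspliced, were also lower in WD. They took 0.870, 0.446, 0.579, 0.702 and 0.504% of the reads in CD and 0.132, 0.155, 0.386, 0.191 and 0.429% in WD, with no overlap. Of 1828 TEC models tested, 1823 of them a single exon, 1482 were lower in WD, 207 of them without overlap (11.3%, against 2.56% of all genes), while 3 were higher without overlap. Their median log2 difference was -0.76. It was -0.24 without the deep libraries and -0.10 with total reads as a term.

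Many TEC models lie inside introns of protein-coding genes, which allows each to be set beside the spliced transcript of its host. This comparison was added after the values were seen. It covered 990 TEC models that lie within 1 tested protein-coding gene on the same strand and share no exon with any gene on that strand, in 647 hosts, and TEC models of 1 host are not independent. The TEC model had a lower log2 difference than its host in 918 of the 990 (92.7%). The medians were -0.94 for these TEC models and -0.06 for their hosts. For example, Gm42929 on chromosome 3, inside the calponin gene Cnn3, was read 177, 127, 93.7, 125 and 109 times in CD and 20.6, 27.3, 49.2, 36.7 and 66.4 times in WD, which did not overlap, while the log2 difference was -1.72 for Gm42929 and -0.27 for Cnn3. Gm45718, inside the signal peptidase gene Sec11a, differed by -1.77 and Sec11a by -0.37. Gm47580, inside Gopc, which encodes a Golgi protein that sperm acrosome formation requires, differed by -1.83 and Gopc by -0.39. The count of TEC models below their hosts was 717 without the deep libraries and 546 with total reads as a term.

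**Figure D3:**
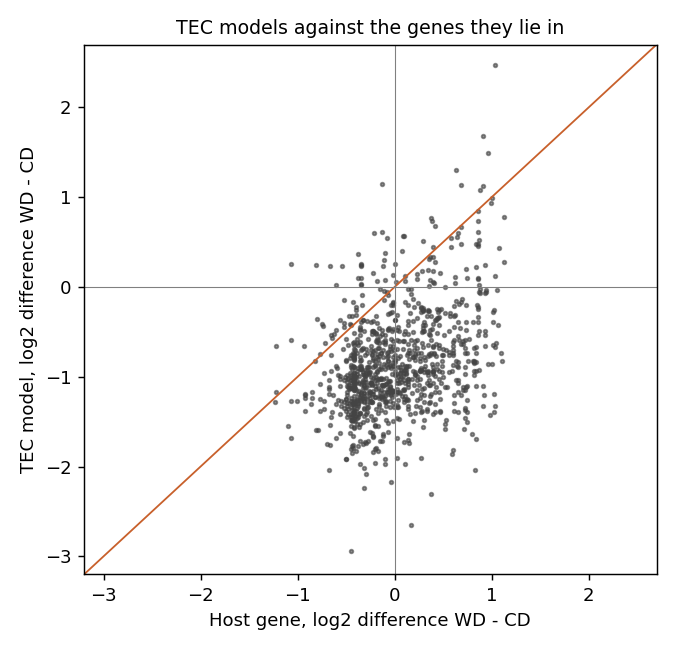
Log2 difference WD - CD of 990 TEC models (y axis) against that of the protein-coding gene each lies in (x axis), 1 point for each TEC model, with the line of equal difference in orange. Most points (918) lie below the line, and the host values centre near 0.

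The 4348 long noncoding RNAs tested had a median log2 difference of 0.07, with 2279 higher and 2069 lower. Among them 4 well-known ones are given here, chosen after their values were seen. Malat1, the speckle RNA, had 313865, 270674, 284948, 307313 and 252058 in CD and 139391, 105160, 258895, 158947 and 201998 in WD, where only male 12 reached the CD range. Kcnq1ot1, the antisense RNA that silences its imprinted cluster in cis, had 7836, 9108, 10102, 10608 and 7656 in CD and 2945, 2593, 7702, 4654 and 6086 in WD, again with male 12 alone inside the CD range. Neat1, the paraspeckle scaffold, averaged 18390.2 ± 2189.7 in CD and 12324 ± 3143 in WD (log2 difference -0.61, and 0.02 with total reads as a term). Gas5, a host of small nucleolar RNAs, had 2457, 1852, 1779, 1801 and 1473 in CD and 973, 956, 1462, 1122 and 1268 in WD without overlap. With total reads as a term the differences of Malat1, Kcnq1ot1 and Gas5 were -0.25, -0.26 and -0.32.

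Outside the splicing list, the protein-coding genes of lowest p on the lower side included the following 5, and shared function was not tested. Lrrtm2, a synaptic adhesion protein, had 211, 229.8, 279, 358 and 236 in CD and 44.2, 107, 188, 96.2 and 97.3 in WD (log2 difference -1.41 ± 0.31, with an unadjusted limma p of 0.000137). Phkg1, the catalytic subunit of phosphorylase kinase, which triggers glycogen breakdown, was at 19.8, 21.2, 19.6, 18.2 and 21.1 in CD and 4.42, 2.37, 8.56, 5.06 and 8.72 in WD, a low level at which single reads count. Mettl5, which methylates an adenosine of 18S ribosomal RNA, was nearly constant in CD at 290.5, 266, 282, 299 and 288 and scattered below that in WD, at 72.1, 78.2, 121, 132 and 209. Nae1, a subunit of the enzyme that activates NEDD8, had 1213, 887, 881, 989.7 and 843 in CD and 429.9, 494, 632, 540.3 and 729 in WD. Orc4, of the origin recognition complex, had 1631, 1876, 1673, 1940.2 and 1414 in CD and 841, 818, 1338, 959 and 1199 in WD. The groups did not overlap in any of these 5 genes. With total reads as a term the log2 differences of Phkg1, Nae1 and Orc4 were -1.60, -0.45 and -0.35.

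Also lower without overlap were Rimoc1, which acts with RAB7 in clearing damaged mitochondria (log2 difference -0.93), Ints8 of the Integrator complex, which processes snRNA ends (-0.68), the kinase Irak4 of Toll-like receptor signalling (-0.71), Il18bp, which binds and blocks interleukin 18 (-0.60), and the transcription regulators Zfp397 (-0.65) and Crebzf (-0.65). These differences became, in the fit with total reads as a term, -0.43 for Rimoc1, -0.36 for Ints8, -0.37 for Irak4, -0.42 for Il18bp, -0.34 for Zfp397 and -0.36 for Crebzf. Of 48 inflammatory response genes 30 were lower on average, with a median of -0.10 that became -0.50 without the deep libraries and 0.10 without CD male 10, and of 47 replication genes 24 were, with a median of -0.07.

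On the higher side, Bsg had the lowest limma p of the protein-coding genes. It encodes basigin, the chaperone of the monocarboxylate transporters that carry lactate, which is required in the testis for sperm to form (chromosome 10, 79540143 to 79547821, plus strand, GRCm39). It was read 1118, 1050.4, 1073, 1202 and 1141 times in CD and 1734, 1694, 1719, 1944 and 2027 times in WD after normalisation. The CD males lay within a narrow range, and the 2 shallow WD libraries, males 12 and 14, were as high as the 3 deep ones. The log2 difference was 0.70 ± 0.14, with an unadjusted limma p of 4.78e-05 and an adjusted limma p of 0.220. It was 0.74 without the deep libraries, 0.65 with total reads as a term, and between 0.67 and 0.73 when each CD or WD library was left out. With libraries rescaled to equal totals, which shifts the median of all genes to -0.49, it was 0.17.

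Bsg was 1 of 34 genes of glycolysis and lactate handling, of which 26 were higher in WD on average (median log2 difference 0.70). Gpi1 and Pkm, which encode glucose phosphate isomerase and pyruvate kinase, were the other members without overlap (0.82 and 0.70). Aldoa, which splits fructose bisphosphate, had 5488, 6404, 6315, 6667 and 7845 in CD and 8831, 13316, 7588, 11199.6 and 10972 in WD, with WD male 12 within the CD range. Aldoa shares 43.1% of its exonic bases with other annotation on the same strand, so its counts are uncertain. The median of the 34 genes was 0.26 without the deep libraries and 0.12 with total reads as a term.

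Kxd1, a subunit of the BORC complex that positions lysosomes, had 379.9, 456, 517, 582 and 648 in CD and 1429.7, 1259.9, 937, 1434 and 754 in WD (log2 difference 1.15 ± 0.24, with an unadjusted limma p of 6.09e-05). The WD values were split by depth, with males 10, 11 and 13 high and males 12 and 14 closer to CD, and the difference was 0.69 with total reads as a term. Kxd1 overlaps other annotated exons over 7.22% of its length on the same strand. Plekhm2, which joins lysosomes to kinesin through the same pathway, was the other BORC list member without overlap (0.47), while the 17 genes of that list had a median of -0.04. Ccdc124, a ribosome-binding factor that lies near Kxd1 on chromosome 8 (from 71320866 and 70964326), had 145, 212, 237, 247 and 296 in CD and 506, 649.5, 435, 593 and 343 in WD. These groups did not overlap either, and the 3 deep libraries were again the highest.

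Protein turnover was mixed. Ubb, a polyubiquitin gene, was higher without overlap, at 8466, 9705, 8789, 9072 and 11871 in CD and 16923, 23987, 13018, 18861 and 15871 in WD. The ubiquitin ligase gene Rnf126 (1.11) and the proteasome genes Psmc2 (0.52), Psmc3 (0.92), Psmd4 (0.46) and Psmd8 (0.45) were as well. In contrast, the conjugating enzyme genes Ube2d2a (-0.56) and Ube2d3 (-0.66) were lower without overlap, as Nae1 was. The 40 ubiquitin genes had a median of -0.08 and the 37 proteasome genes -0.09. Reads of Ubb and its processed pseudogene Ubb-ps may be split by the counting, and the log2 difference of Ubb-ps, 0.80, is no separate result.

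Rpl36, of the large subunit of the ribosome, had 1871, 1601, 1851, 1603 and 2176 in CD and 6256, 7155, 2869, 5188 and 3120.4 in WD, the largest log2 difference (1.35 ± 0.32) among the 79 cytosolic ribosomal protein genes. Rps28 (0.67), Rpl32 (0.69) and Rplp2 (0.35) were also without overlap, and 62 of the 79 were higher on average, with a median of 0.21. The number above CD was 69 without the deep libraries and 72 with total reads as a term, and the medians were 0.21 and 0.19. Under equal totals the median was -0.33, which is still 0.16 above that of all genes. Nuclear-encoded subunits of oxidative phosphorylation gave 47 of 77 higher, 70 without the deep libraries and 70 with total reads as a term, but 32 without WD male 14 and 38 without CD male 10. The list members without overlap were Ndufa13 and Ndufa2 of complex I and Cox7a2 of complex IV (0.93, 0.74 and 0.64). Ndufa13 overlaps a gene on the other strand over 43.3% of its exonic bases. In the chaperonin and heat shock list, with 20 of 31 higher, Cct5 and Dnajb1 were without overlap (0.54 and 0.65), and Cct5 was at 0.43 with total reads as a term.

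All 60 sperm and late spermatid transcripts tested were higher in WD on average (median log2 difference 1.09), 21 of them at an unadjusted limma p under 0.05, and Lyzl4, a lysozyme-like protein of the acrosome, was the 1 member without overlap. Summed over the list, normalised counts were 832868, 750943, 424980, 381211 and 591575 in CD and 1540940, 2316790, 887362, 1546900 and 364373 in WD, with male 14 below every CD male. Prm2, a protamine that packs sperm DNA, had 21462, 21107, 12233, 9474 and 20204 in CD and 52957, 103966, 35684, 71101 and 17578 in WD. In WD male 14 it was within the CD range. Tekt4, a tektin of the flagellum, had 181, 400.2, 337, 353 and 504 in CD and 816, 1016, 944, 1484 and 409 in WD, and Zpbp2, a zona pellucida binding protein, averaged 202 ± 64.2 in CD and 609.5 ± 280.1 in WD. Without the deep libraries 43 of the 60 were above CD with a median of 0.20. With total reads as a term the direction turned, to 23 above CD and a median of -0.07. Mitochondrially encoded transcripts did likewise, all 15 being higher with a median of 0.78 and the median becoming -0.03 and -0.80.

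**Figure D4:**
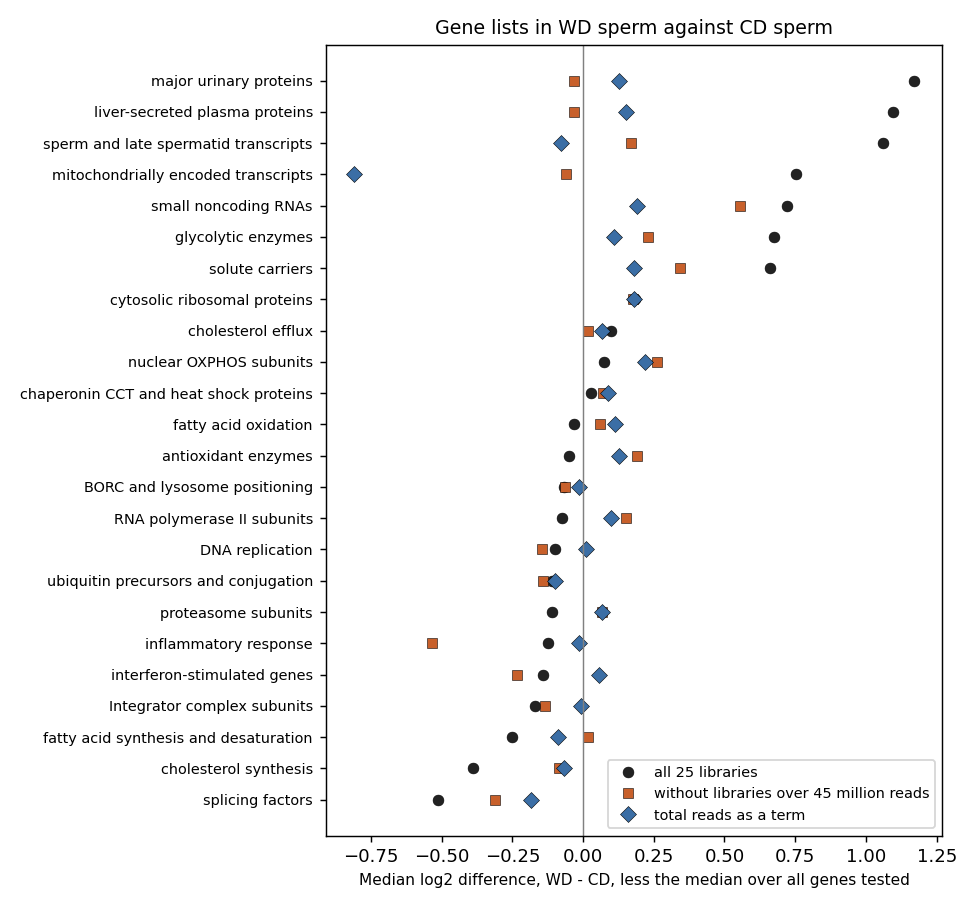
Median log2 difference WD - CD of 24 gene lists, less the median over all genes tested, over all libraries (black), without deep libraries (orange) and with total reads as a term (blue). Splicing factors lie lowest in black and stay below 0 in all 3, while sperm transcripts move from the right side to near 0.

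Of the 47575 genes listed, 80 had no read in any CD library but reads in at least 4 WD libraries, and 33 showed the reverse. Many of the 80 rest on few reads, such as Mir367 with 6 over the WD libraries. The genes with fold limits below were picked for a CD count of 0. Slc22a12, the urate exchanger URAT1 of kidney, had 132 reads over the WD libraries, at normalised counts of 41.2, 53.3, 8.56, 38.0 and 14.1. Against the limit that a count of 0 allows in the CD group (3 counts over the group) this is at least 53.9-fold higher, and at least 44.2-fold higher with any 1 WD library left out. Nos2, the inducible nitric oxide synthase, had 47.1, 33.2, 10.7, 29.1 and 10.1 in WD, at least 45.2-fold higher. Egr4, an early growth response factor needed for male germ cells in mice, had 8.83, 19.0, 5.35, 12.7 and 7.38, at least 18.5-fold higher. Gm43064, a predicted protein-coding gene, had 89.8, 28.4, 0, 92.4 and 178, with none in male 12, at least 135-fold higher, but its 0s and its reads depend on how reads of the shared 94.3% of its exonic bases were assigned. These limits cover counting error only, since reads without molecular identifiers are not independent molecules. Most WD libraries had more total reads, but the size factors, by which counts are divided, did not follow the totals. They were 0.861 to 1.174 in CD, 0.679, 0.844 and 0.79 in WD males 10, 11 and 13, and 0.934 and 1.49 in males 12 and 14. At an equal normalised count, WD males 10, 11 and 13 would thus give fewer reads than any CD library, and male 14 more.

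Other scarce transcripts followed the same course. Slc5a4b, of the sodium and glucose cotransporter family, had 0, 0, 9.37, 0 and 0 in CD and 48.6, 47.4, 19.3, 53.1 and 9.39 in WD. Nkx6-2, a homeobox factor, had 0, 9.53, 5.11, 4.56 and 9.67 in CD and 51.5, 47.4, 25.7, 44.3 and 13.4 in WD, and Icam5, a neuronal adhesion protein, 0, 0, 5.11, 0 and 11.4 and 17.7, 48.6, 23.6, 39.2 and 15.4. Icam5 did not split by depth within WD, since deep male 10 was below shallow male 12. In Slc22a12, Nos2, Slc5a4b and Nkx6-2 the 3 deep libraries were the highest WD libraries, and males 12 and 14 were nearer to the CD values. With total reads as a term the log2 differences of Slc22a12, Nos2 and Slc5a4b were 4.43, 3.92 and 3.14, on a scale where a fitted value for a gene at 0 depends on the pseudocount.

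The diet supplied fat and cholesterol, and transcripts of lipid handling are given for that reason. Of 27 cholesterol synthesis genes 23 were lower in WD on average, with a median of -0.36, but none was without overlap. Without CD male 10 the median was -0.55, and 9 members in place of 1 had an unadjusted limma p under 0.05. Srebf2, the transcription factor that senses sterols, had 4273, 4148, 4858, 5511 and 4757 in CD and 3213, 2515, 4092, 3514 and 4599 in WD (an unadjusted limma p of 0.0429), with overlap between the groups. The list's median was -0.05 without the deep libraries and -0.06 with total reads as a term. Apoe, which carries cholesterol out of cells on lipoproteins, was without overlap, at 5067, 8849, 6975, 5695 and 4925 in CD and 13814, 14446, 8958, 10310 and 11152 in WD (log2 difference 0.91 ± 0.35), with 0.70 without the deep libraries and 0.44 with total reads as a term. Scd4, a fatty acid desaturase, was scarce and without overlap on the lower side, at 52.3, 21.2, 17.9, 21.0 and 31.7 in CD and 4.42, 15.4, 10.7, 0 and 16.8 in WD. Fatty acid oxidation genes were split evenly, 16 of 32 being higher, with a median of -0.01.

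Protein-coding genes that were lower in WD were longer and richer in A and T than those that were higher. The 312 genes lower without overlap had a median exonic length of 9602 bases and 42.2% GC, the 267 higher ones 4832 bases and 52.7% GC, and all 17492 tested 5584 bases and 48.7% GC. Exonic length here is the union of all annotated exons of a gene. Over all protein-coding genes tested, 1.78% were lower without overlap and 1.53% higher. Among 5074 genes of over 8000 bases, 209 were lower (4.12%) and 58 higher (1.14%). Among 463 genes of up to 1000 bases, 1 was lower (0.216%) and 9 were higher (1.94%). The share higher thus differed little between these length classes and all genes. Among 2443 genes of up to 42% GC, 151 were lower (6.18%) and 13 higher (0.532%). Among 3841 genes above 54% GC, 18 were lower (0.469%) and 114 higher (2.97%). The median log2 difference ran from 0.61 in the shortest class to -0.06 in the longest. For the shortest class it was 0.28 without the deep libraries and 0.15 with total reads as a term, and for the longest -0.05 and -0.06.

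**Figure D5:**
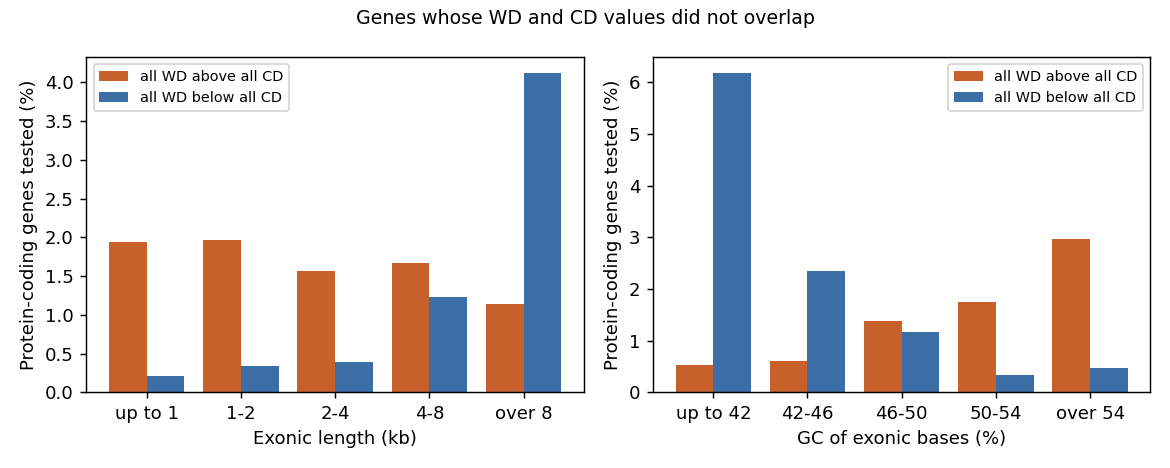
Percent of protein-coding genes tested in which all 5 WD values lay above (orange) or below (blue) all 5 CD values, by class of exonic length (left) and of GC of the exonic bases (right). The blue bars are highest in the longest and the most AT-rich genes, at 4.12% and 6.18%.

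Markers of other cells were present in both groups. Leukocyte markers summed to 128735 to 155725 in CD and 89889.6 to 174223 in WD, epididymal epithelium markers to 124862 to 433346 in CD and 196084 to 383666 in WD and erythrocyte markers to 8573 to 77674 in CD and 15818 to 134865 in WD, all overlapping. Leukocyte markers had a median log2 difference of -0.02 with 10 of 22 higher, and 0.26 with 18 higher without CD male 10. Endothelial markers had 0.39 with 11 of 14 higher, and 0.19 without WD male 14. All 10 erythrocyte markers tested were higher on average, with a median of 0.80 that was -0.10 without the deep libraries and 0.78 with total reads as a term. Of 20 fibroblast and matrix markers 19 were higher, with a median of 0.54, which was 0.23 without the deep libraries and 0.35 with total reads as a term. Without overlap among these markers were Vwf, of endothelium (0.92), and Lcn10, an epididymal lipocalin (3.29, with mean counts of 5.77 in CD and 46.5 in WD). Transcripts of spermatocyte meiosis, 22 of 24 higher with a median of 0.81, had a median of 0.01 without the deep libraries (12 higher) and of -0.30 with total reads as a term (4 higher). Liver-secreted plasma proteins had a median of 1.12, which was 0.18 without WD male 11. The part of these cells in the results above was not tested.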

How the data were processed

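Sperm RNA of 25 C57BL/6J males in 5 diet groups was measured as total RNA, depleted of ribosomal RNA and sequenced in directional libraries of paired 75-base reads. The study states 6 males per group, and 5 libraries per group were analysed here. The authors trimmed the reads (Trim Galore 0.6.7), aligned them to GRCm39 (HISAT2 2.2.1), assigned them to genes (StringTie 2.2.1) and deposited normalised counts, a signal in which each library's counts are divided by 1 DESeq2 size factor. Dividing each library by its step gave whole reads for 100% of values within 0.01. Names, biotypes, exons and sequences came from GENCODE vM39, which holds 47034 of the 47575 genes listed, and the other 541 were tested without a name. 0 value columns were left unused.

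Genes with a mean of at least 5 normalised counts over 25 libraries (28311) were tested on log2(value + 1) with limma 3.58.1 (trended, robust; R 4.3.3), with all 5 diets in 1 model and WD minus CD as the contrast. P-values were adjusted by Benjamini-Hochberg over all genes tested, and those given for single genes are unadjusted unless stated. Each library is 1 male, and p-values measure the spread between these males. Fold changes on this scale understate the change of scarce genes. edgeR 4.0.16 and DESeq2 1.42.0 were run on the recovered counts as alternatives, with other scalings, filters, pseudocounts, a replicate block, library weights and left-out libraries. The leave-one-out runs of DESeq2, the fit without the libraries of over 45000000 reads and the fit with total reads as a term were chosen after seeing the data. The limma, edgeR and DESeq2 fits were tested on simulated data at their basic settings, without library weights, blocks or the term for total reads. No pair of CD or of WD libraries was a repeat of 1 library (lowest chi-square per degree of freedom 17.9).

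The gene lists and genes were chosen with earlier results of these data known. Genes are named by a rule: the lowest p without overlap in each direction, genes with no read in 1 group, and the leading members of each list. Other splicing, ubiquitin, TEC and long noncoding genes were named after their values were seen, as were Pcdhga10, Snord3b3 and Slc25a43. The text leaves out some of the genes that the rule names. WD and the low-protein comparison share the CD libraries, and no result across them is given.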

Additional observations from a re-analysis of the deposited data

Results flagged for a closer look

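In 213 sets of 5 values (each named gene, list sum and library measure, in CD and in WD), the highest or lowest male stood off from the other 4 by more than 0.71 of the range in 13. Chance flags about 1 set in 20, and 9 of the 13 were CD male 10.

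CD male 10 held reads in 26859 genes, against 33069 in the next CD male. Its summed normalised counts were low for solute carriers (6651, next 14511), epididymal epithelium markers (124862, next 344547), seminal vesicle markers (329.954, next 1138) and Leydig cell markers (335, next 521). They were high for replication genes (27804, next 22275) and for BORC and lysosome positioning genes (13568, next 9186). Of single genes, Ints8 (1591, next 1085) and the TEC model Gm45718 (353, next 187) were high in the same male.

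Rnf126, the ubiquitin ligase gene, was high in CD male 15 at 477, next 401. Slc5a4b had reads in CD male 12 alone among the CD males, at 9.37, next 0. In WD, male 14 had the highest sum of nuclear oxidative phosphorylation subunits at 92536, next 64601. Male 11 had the highest sum of major urinary proteins, which the liver secretes, at 364, next 36.8.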

How the results depend on the processing

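The count of genes past the adjusted limma threshold stayed at 0 in each direction under every limma and edgeR alternative except library weights, which called 5999 higher and 6201 lower, and the fit without CD replicate 12, which called 1 higher (Dhx58os, named after its value was seen). Leaving out each replicate in turn gave 0 to 1 higher and 0 lower with limma. DESeq2 called 59 and 64, and filtered at 0.05 61 and 47, with leave-one-out ranges of 3 to 1060 higher and 2 to 1076 lower. At an unadjusted p under 0.05, where the main analysis gave 2314 higher and 2293 lower, the counts in those directions were 3658 and 2871 with DESeq2 (either filter), 3911 and 1474 with edgeR, 3376 and 1482 with TMM, 699 and 2820 with equal totals, 7173 and 7606 with library weights, 1511 and 1798 at a mean of at least 50, 1601 and 1201 in protein-coding genes alone, 1481 and 1721 with groups from the treatment field, 691 and 1338 without CD 10 and WD 11, 330 and 627 without the deep libraries (over 45000000 reads), and 350 and 166 with total reads as a term. Leaving out 1 replicate gave 1058 (without WD 11) to 4457 (without WD 14) higher and 1345 (without WD 11) to 3216 (without WD 14) lower. Genes without overlap numbered 93 higher and 767 lower under equal totals and 585 and 499 under TMM. The cause of these differences was not tested, other than fewer genes or libraries entering.

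Equal totals moved the median of all genes to -0.49 and TMM to 0.11. Of 1810 alternative values of 61 named genes, 1808 kept their direction, the exceptions being Psmd4 under equal totals (-0.0783) and Neat1 with total reads as a term (0.0195). Many of the 61 were named because their groups did not overlap, and leaving out 1 library cannot reverse such a gene. The count is therefore no measure of how well other genes hold. Outside the 61, Crat went from 1.03 to -0.26 with total reads as a term, and Acox3 from -0.67 to 0.06 without the deep libraries. Of 941 alternative medians of 35 lists, 48 moved by over 1 SD between males.

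The male numbers shared by CD and WD were not treated as pairs. Deviations of same-numbered males correlated at 0.316, 0.0324, 0.172 and 0.408 (males 10, 11, 12 and 14), and 4 of 8 libraries correlated best with their own number. A replicate block over all 25 libraries gave 1218 genes above and 1530 below CD at that p, a block over the 4 pairs 2875 and 1876, and neither block gave a call. Depth sets the limit for scarce genes: a group without a read can still hold a transcript at under 3 counts over the group.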
